A study of Mus musculus with 9 samples.

Results

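Immediate-early genes of the EGR, NR4A and IER families, and the EGR corepressors, were followed across 9 RNA sequencing libraries of mouse bone marrow-derived macrophages, primary cells grown from C57BL/6 bone marrow for 7 days. The 10 genes were taken by mouse symbol, namely the EGR transcription factors Egr1, Egr2 and Egr3, their corepressors Nab1 and Nab2, the orphan nuclear receptors Nr4a1, Nr4a2 and Nr4a3, and the immediate early response genes Ier2 and Ier3. All 10 were found among the 22524 counted genes, and 9 of the 10 had enough reads to be tested. Egr3 did not. The libraries formed 3 groups of 3, namely cells labelled SRF-KO and given lipopolysaccharide (LPS, a bacterial outer membrane component sensed through Toll-like receptor 4) for 6 h, wild-type control cells given LPS for 6 h, and untreated wild-type control cells. The deleted allele, the Cre driver and the age of the mice are not stated in the labels, and untreated SRF-KO cells are not among the groups.

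Immediate-early genes are switched on without new protein synthesis within minutes of a stimulus, and their transcripts are usually short-lived. Serum response factor (SRF) is a classical activator of this class, working with ternary complex factors such as ELK1 at CArG boxes in their promoters after MAP kinase signalling. EGR proteins are zinc finger activators that also induce Nab2, whose product binds EGR proteins and recruits a repressing complex. NR4A receptors bind DNA without a known natural ligand and are known in macrophages as inducible regulators of inflammatory genes. A treatment of 6 h lies after the usual peak of this class, so the levels are those late in the response.

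LPS alone raised 8 of the 9 tested genes in control cells and lowered Egr2, though Egr1 and Nr4a1 did not pass with library totals in place of the scaling used here. In SRF-KO cells given LPS, 5 of the 9 were higher than in control cells given LPS, namely Egr2, Nr4a1, Nr4a3, Ier3 and Egr1, while Nab1 and Nab2 were lower and Nr4a2 and Ier2 did not pass the test. The largest difference was in Egr2, at 28.0 ± 2.98 CPM in SRF-KO with LPS and 1.40 ± 0.205 CPM in control with LPS (SD, n = 3 each), a 19.7-fold difference. CPM is the read count of a gene relative to the library's total after TMM scaling, and a gene passed at an adjusted p below 0.05 in edgeR's quasi-likelihood test over all 11560 tested genes. Most tested genes passed in each comparison. In SRF-KO against control, both with LPS, 39.1% of all tested genes were called higher and 37.9% lower, against 5 and 2 of the 9 genes here, so the counts alone do not set these genes apart. At least 2-fold higher were 13.9% of all tested genes, against 4 of the 9. In LPS against untreated control, 40.8% of all tested genes were called higher and 40.8% lower, and 15.6% at least 2-fold higher, against 8, 1 and 6 of the 9 genes. In SRF-KO with LPS against untreated control, 39.4% of tested genes were called higher, 40.1% lower and 13.4% at least 2-fold higher, whereas 9, 0 and 8 of the 9 genes were. With library totals the calls over all genes split otherwise, with 2428 higher and 7835 lower for LPS, 7059 and 2434 for SRF-KO against control with LPS, and 3448 and 6042 for SRF-KO with LPS against untreated control, where TMM gave 4722 and 4721, 4521 and 4384, and 4554 and 4638. The first 2 comparisons share the control libraries with LPS, and genotype and LPS both differ in the last.

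**Figure D1:**
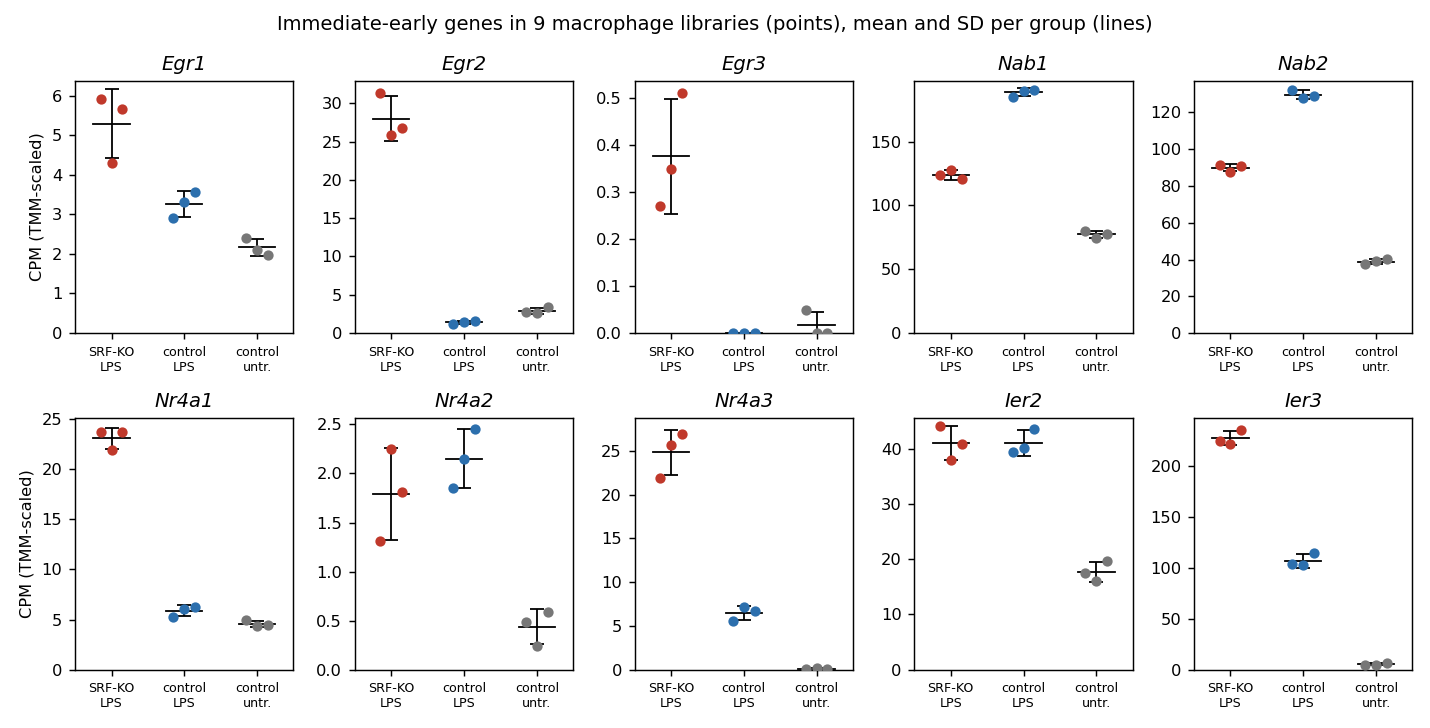
TMM-scaled CPM of the 10 genes in every library (points), with the mean (horizontal line) and SD (bar) of 3 libraries per group, on axes that start at 0. Egr1, Egr2, Egr3, Nr4a1, Nr4a3 and Ier3 were highest in SRF-KO with LPS. Nab1 and Nab2 were highest in control with LPS, and the LPS groups overlapped for Nr4a2 and Ier2.

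Total counts per library ranged from 15321839 to 24912173. Srf had 34, 24 and 12 counts in SRF-KO with LPS, and a log2 fold change of -5.75 against control with LPS (adjusted p = 2.85e-32). The groups also differed in Y-linked expression. Uty, Ddx3y, Kdm5d and Eif2s3y together had 6 counts over the SRF-KO libraries, 5991 over control with LPS and 7337 over untreated control, so genotype and sex of the cells cannot be told apart in any SRF-KO value given here. None of the 10 genes lies on X or Y. All 10 macrophage markers looked for were expressed, with a summed level of 24667 to 24924 CPM in SRF-KO with LPS, 24061 to 24547 CPM in control with LPS and 17202 to 17812 CPM in untreated control. Between the LPS groups 3 of these markers were higher and 7 lower in SRF-KO, 5 of them at least 2-fold lower, with a median log2 fold change of -0.88, or -0.52 with library totals. Of 8 neutrophil markers the sum was 18.8 to 20.5 CPM in SRF-KO with LPS and 6.34 to 7.33 CPM in control with LPS. It was 2.24 to 2.56 CPM in untreated control, with Elane at 0 counts throughout. Only 3 of the 8 were tested, and in SRF-KO against control with LPS 2 were higher and 1 did not pass. Of 6 stromal and endothelial markers the sum was 28.0 to 30.2, 20.3 to 26.3 and 1.87 to 2.17 CPM in the same 3 groups, with Col1a1 and Cxcl12 at 0 counts throughout. Of the 3 tested, Pdgfrb was higher in SRF-KO than in control with LPS (log2 fold change 0.90), and Pecam1 and Cdh5 were lower (-1.78 and -2.23). The sums of 5 B cell, 6 T and NK cell, 5 dendritic cell, 4 mast cell and 5 erythroid markers stayed at or below 2.17 CPM in every library. The part of other cell types in the results was not tested. In bulk RNA, fewer cells of a type and less RNA per cell cannot be told apart.

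Egr2 is shown first with its promoter sequence, because it had the largest difference between the LPS groups among the tested members. Another reason is that CArG boxes, the sites SRF is known to bind, occur at 2 separate starts of this gene. It lies on chromosome 10 (67535475 to 67542188, plus strand, GRCm38, GENCODE release 21). Promoter windows from RefSeq (GRCm38.p6), of 250 bases before to 50 bases after the start, were used for 7 of the 10 genes, with 5 windows for Egr2. No window of Egr1, Egr3 or Ier2 was used, so CArG boxes of these genes were not looked for. A CArG box (CC, then A or T only, then GG) was in 4 of these 5 windows, of which 3 overlap around the same box, while 1.63% of all 32851 promoter windows hold one. In both sequences below, capitals mark the CArG box and, in the second, also the core of a cAMP response element, TGACG on either strand, which 20.8% of all windows hold. They run 5′ to 3′ from chr10:67537316-67537615 and chr10:67537619-67537918, plus strand.
Egr2 start 2: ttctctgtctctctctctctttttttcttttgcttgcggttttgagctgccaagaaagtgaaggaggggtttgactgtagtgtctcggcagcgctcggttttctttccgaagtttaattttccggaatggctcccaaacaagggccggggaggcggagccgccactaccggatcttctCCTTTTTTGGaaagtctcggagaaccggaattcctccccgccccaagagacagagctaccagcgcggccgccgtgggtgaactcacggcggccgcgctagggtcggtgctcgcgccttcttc
Egr2 start 3: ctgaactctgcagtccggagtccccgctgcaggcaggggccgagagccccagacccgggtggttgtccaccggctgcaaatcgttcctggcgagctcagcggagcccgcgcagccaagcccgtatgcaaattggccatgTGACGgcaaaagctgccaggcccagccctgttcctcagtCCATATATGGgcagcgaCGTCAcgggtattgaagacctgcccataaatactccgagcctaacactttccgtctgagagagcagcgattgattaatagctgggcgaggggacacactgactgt

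Egr2 had 31.4, 25.8 and 26.8 CPM in SRF-KO with LPS, 1.21, 1.38 and 1.62 CPM in control with LPS and 2.75, 2.63 and 3.36 CPM in untreated control. The 3 groups did not overlap, with the SRF-KO libraries far above both control groups and control with LPS lowest. Egr2 encodes a zinc finger factor known in myeloid cells and in Schwann cell myelination. Its counts were 697, 667 and 473 in SRF-KO with LPS, against 15, 20 and 25 in control with LPS. The difference of SRF-KO from control with LPS was 4.30 on the log2 scale (95% interval 4.02 to 4.59, adjusted p = 2.55e-26). With the sign kept, 0.727% of tested genes had a higher log2 fold change. LPS lowered Egr2 in control cells, with a log2 fold change of -1.03 (SE 0.220, adjusted p = 5.82e-05). SRF-KO with LPS was also above untreated control, by a log2 fold change of 3.27, with an SE of 0.109 and adjusted p = 4.92e-26.

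Egr1, the best known gene of the family and a textbook SRF target, moved far less. It lies on chromosome 18 (34859823 to 34864984, plus strand). It had 5.90, 4.30 and 5.67 CPM in SRF-KO with LPS, 2.90, 3.32 and 3.56 CPM in control with LPS and 2.41, 2.11 and 1.98 CPM in untreated control. The groups did not overlap, though the lowest SRF-KO library lay close to the highest control library with LPS. The log2 fold change of SRF-KO over control with LPS was 0.67 with an SE of 0.162 (95% interval 0.35 to 1.00, adjusted p = 3.16e-04). With the sign kept, 20.9% of tested genes had a higher log2 fold change than Egr1. The LPS response of control cells was 0.59 (SE 0.194, adjusted p = 0.00544), but 0.05 and not past the test when libraries were scaled by their totals alone.

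Egr3 (chromosome 14, 70077203 to 70082614, plus strand) was too low to be tested with the other genes. It had 6, 9 and 9 counts in SRF-KO with LPS, 0 in each control library with LPS, and 1, 0 and 0 in untreated control. With control with LPS set to an assumed floor of 3 counts summed over the group, Egr3 was 5.16-fold higher in SRF-KO. The exact 95% lower limit of the ratio of 24 counts to 0 was 3.88, so a smaller ratio than 5.16 is possible. Against the single count in untreated control the ratio was 22.1 (95% counting interval 3.60 to 907). The limit of 3.88 and the interval cover counting error only. When genes with low counts were kept, edgeR's adjusted p was 1.05e-04 for SRF-KO against control with LPS over 15127 genes. The relative Egr4 had no count in any library.

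**Figure D2:**
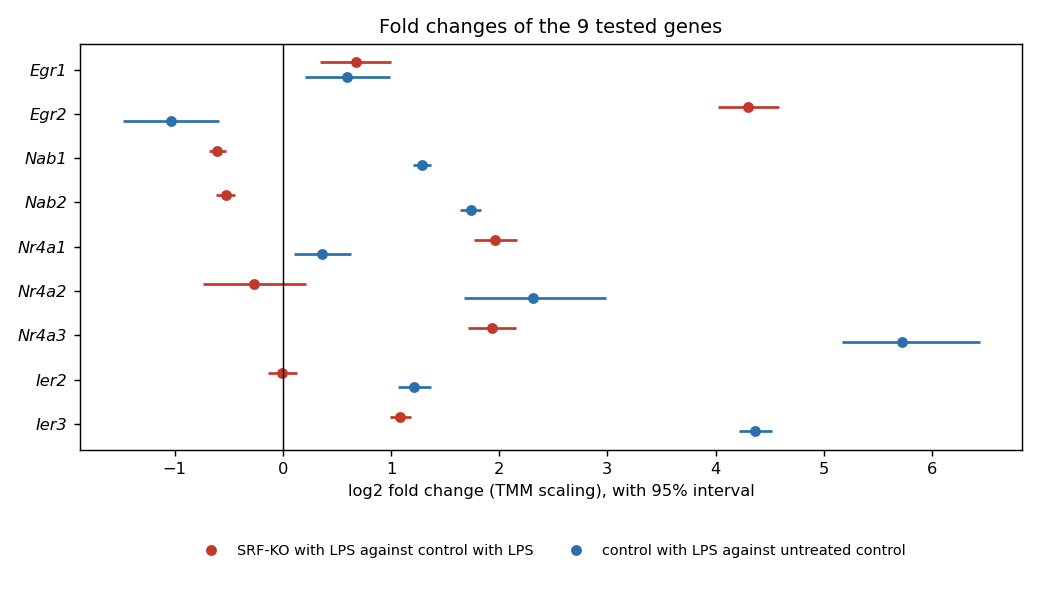
Log2 fold changes of the 9 tested genes on TMM scaling, with 95% intervals, for SRF-KO with LPS against control with LPS (red, upper of each pair) and control with LPS against untreated control (blue, lower). Egr2 is at 4.30 in red and -1.03 in blue, and the red intervals of Nr4a2 and Ier2 cross 0.

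The corepressors Nab1 and Nab2 were far more abundant and were highest in control with LPS. Nab1 (chromosome 1, 52457294 to 52500679, minus strand) had 123.6, 127.9 and 120.5 CPM in SRF-KO with LPS, 185, 190 and 191 CPM in control with LPS and 79.9, 74.7 and 77.6 CPM in untreated control. Nab2 (chromosome 10, 127660918 to 127668568, minus strand) had 91.2, 87.8 and 91.1 CPM in SRF-KO with LPS, 132, 128 and 129 CPM in control with LPS and 37.6, 39.1 and 40.1 CPM in untreated control. For both genes the SRF-KO libraries lay between the 2 control groups without overlap. Between the LPS groups, the log2 fold change of Nab1 was -0.60 with an SE of 0.0404 (adjusted p = 2.32e-16). That of Nab2 was -0.53 with an SE of 0.0433 (adjusted p = 9.85e-14). With library totals these differences were -0.25 and -0.17 on the log2 scale, and both still passed. LPS raised Nab1 by 1.29 (SE 0.0423, adjusted p = 2.31e-26) and Nab2 by 1.74 (SE 0.0476, adjusted p = 5.79e-29) in control cells. SRF-KO with LPS remained above untreated control, by 0.68 for Nab1 (adjusted p = 1.88e-17) and 1.21 for Nab2 (adjusted p = 9.08e-24).

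Nab2 shares exon bases with 3 opposite-strand genes, namely 1050 bases with the antisense gene Gm16229, 151 with Nemp1 and 40 with Stat6. Gm16229 has no count of its own in the files, so its reads and those of Nab2 could not be told apart if strand was not used. Whether the counting used strand is not stated in the labels. Stat6 and Nemp1 went the other way from Nab2, with differences of SRF-KO from control with LPS of 0.22 and 0.82 and LPS responses of -0.25 and -0.53 on the log2 scale. The promoter of Nab1 is shown because EGR proteins are known to bind the letters GCGNGGGCG, and its window held 3 such matches. Of all promoter windows 5.55% hold at least 1. Capitals mark these matches, 1 TGACG core and 1 kappa B site (the NF-kB motif, in 8.46% of windows), at chr1:52500399-52500698, minus strand, 5′ to 3′.
Nab1: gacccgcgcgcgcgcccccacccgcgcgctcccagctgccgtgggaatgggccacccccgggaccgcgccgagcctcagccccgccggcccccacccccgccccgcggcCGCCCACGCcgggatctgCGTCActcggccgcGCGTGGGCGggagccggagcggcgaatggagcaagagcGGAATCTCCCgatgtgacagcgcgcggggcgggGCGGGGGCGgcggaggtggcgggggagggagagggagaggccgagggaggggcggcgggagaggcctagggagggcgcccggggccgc

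Per length of exon, the EGR family as a whole stayed far below the NAB pair in every group. The summed EGR level was 9.51 ± 1.02 CPM per kb in SRF-KO with LPS, 1.14 ± 0.133 in control with LPS and 1.34 ± 0.0934 in untreated control (SD, n = 3 each). The summed NAB level was 60.9 ± 0.439, 90.1 ± 0.324 and 32.1 ± 0.541 CPM per kb in the same 3 groups. The EGR sum was therefore 15.6 ± 1.63% of the NAB sum in SRF-KO with LPS, 1.26 ± 0.147% in control with LPS and 4.18 ± 0.222% in untreated control, with no overlap between groups, and this ratio does not depend on the scaling of libraries. Which gene supplied the EGR transcripts also differed. Egr2 made up 86.7 ± 1.46% of the EGR sum in SRF-KO with LPS, 36.1 ± 1.16% in control with LPS and 63.7 ± 4.96% in untreated control. Egr1 made up 12.4 ± 1.27%, 63.9 ± 1.16% and 36.1 ± 4.64% of it in these groups.

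**Figure D3:**
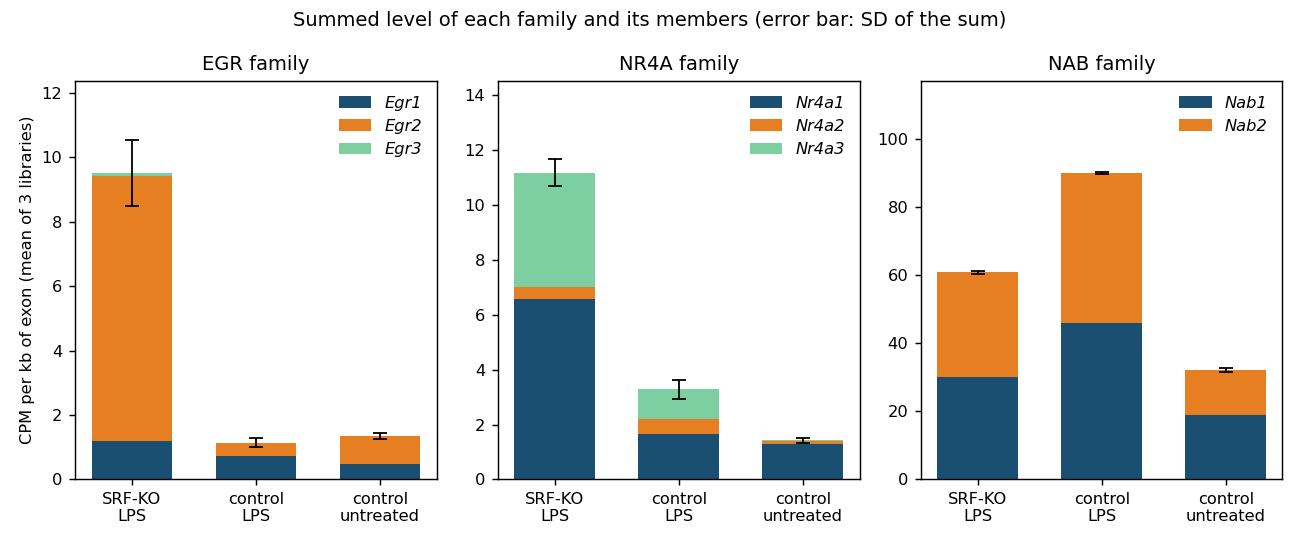
Mean CPM per kb of exon of each member, stacked by family, in SRF-KO with LPS, control with LPS and untreated control, with the SD of the sum over 3 libraries, on a separate axis for each family. The EGR and NR4A sums are highest in SRF-KO with LPS (9.51 and 11.2 CPM per kb), whereas the NAB sum is highest in control with LPS (90.1 CPM per kb).

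The NR4A receptors split, with Nr4a1 and Nr4a3 higher in SRF-KO and Nr4a2 not. Nr4a1, also known as Nur77, lies on chromosome 15 (101254269 to 101274795, plus strand). It had 23.7, 21.9 and 23.7 CPM in SRF-KO with LPS, 5.24, 6.08 and 6.27 CPM in control with LPS and 4.92, 4.36 and 4.43 CPM in untreated control. The SRF-KO libraries stood clear of both control groups, which lay close together. The difference from control with LPS was 1.96 on the log2 scale (95% interval 1.77 to 2.16, adjusted p = 2.76e-20). The LPS response of control cells was small, at 0.37 (SE 0.131, adjusted p = 0.0104). It became -0.18 with library totals, and without control LPS library 3 it was 0.31 and did not pass.

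Nr4a3, or NOR-1, lies on chromosome 4 (48045153 to 48086447, plus strand). It had 21.9, 25.6 and 26.9 CPM in SRF-KO with LPS, 5.56, 7.12 and 6.66 CPM in control with LPS and 0.0482, 0.239 and 0.0534 CPM in untreated control. The 3 groups formed separate steps. The log2 fold change of SRF-KO over control with LPS was 1.93 with an SE of 0.108 (adjusted p = 8.77e-19). LPS raised Nr4a3 in control cells, with 275 counts over the control libraries with LPS and 7 over the untreated ones. That is a ratio of 56.0 (95% counting interval 26.8 to 141). For LPS, 1.04% of tested genes had a higher log2 fold change. Untreated library 2 held 5 of the 7 counts, and without it the log2 fold change was 6.82 in place of 5.73. Against untreated control the ratio for SRF-KO with LPS was 213 (95% counting interval 103.2 to 531), and without untreated library 2 the log2 fold change was 8.75 in place of 7.66.

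Nr4a2, or Nurr1, known for its part in dopamine neurons, lies on chromosome 2 (57106830 to 57124003, minus strand). It had 1.31, 2.24 and 1.81 CPM in SRF-KO with LPS, 1.85, 2.14 and 2.46 CPM in control with LPS and 0.482, 0.239 and 0.587 CPM in untreated control. The LPS groups overlapped, and both were above the untreated libraries. The difference of SRF-KO from control with LPS was -0.26 on the log2 scale (95% interval -0.74 to 0.21, adjusted p = 0.309). With 119 and 92 counts per group, any difference within that interval remains possible. LPS raised Nr4a2 by 2.31 in control cells (SE 0.324, adjusted p = 3.66e-08).

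Summed per length, the NR4A level was 11.2 ± 0.492 CPM per kb in SRF-KO with LPS, 3.28 ± 0.348 in control with LPS and 1.43 ± 0.0950 in untreated control. Nr4a1 made up 59.0 ± 3.43% of it in SRF-KO with LPS, 51.0 ± 0.815% in control with LPS and 91.2 ± 1.79% in untreated control. Nr4a3 made up 37.1 ± 2.54%, 32.8 ± 1.45% and 1.38 ± 1.39% of it. Nr4a2 made up 3.94 ± 1.00% of it in SRF-KO with LPS, 16.1 ± 1.01% in control with LPS and 7.46 ± 2.92% in untreated control. Nr4a1 was thus the largest share in each group, and Nr4a3 was a sizeable one in the LPS groups. RXR proteins are the known dimer partners of Nr4a1 and Nr4a2. Rxra had 24.0, 22.2 and 22.5 CPM in SRF-KO with LPS, 16.6, 14.3 and 17.1 CPM in control with LPS and 44.6, 44.7 and 45.7 CPM in untreated control. It was 0.52 higher in SRF-KO than in control with LPS (adjusted p = 1.28e-07), and LPS lowered it by 1.49 on the log2 scale (log2 fold change -1.49, adjusted p = 2.88e-21).

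The windows of Nr4a1 and Nr4a3 are printed because both genes rose similarly in SRF-KO and neither window holds an exact CArG box. Both windows were searched for that exact form only, so sites with a mismatch would be missed. Each held 4 TGACG cores, as did that of Nr4a2, and none held the full TGACGTCA, which 1.79% of all windows hold. Nr4a1 also held 1 EGR match and a kappa B site read on both strands. The NR4A site AAAGGTCA, in 1.51% of all windows, was in none of the member windows. Capitals mark the matches, at chr15:101266596-101266895 and chr4:48045055-48045354, plus strand, 5′ to 3′. A match is a run of letters, and binding was not measured.
Nr4a1: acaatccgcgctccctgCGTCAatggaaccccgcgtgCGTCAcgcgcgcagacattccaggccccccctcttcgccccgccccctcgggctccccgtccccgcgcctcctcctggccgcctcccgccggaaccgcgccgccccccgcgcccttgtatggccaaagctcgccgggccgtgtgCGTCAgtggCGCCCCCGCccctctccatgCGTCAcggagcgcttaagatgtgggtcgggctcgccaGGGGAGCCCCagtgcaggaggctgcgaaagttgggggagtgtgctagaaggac
Nr4a3: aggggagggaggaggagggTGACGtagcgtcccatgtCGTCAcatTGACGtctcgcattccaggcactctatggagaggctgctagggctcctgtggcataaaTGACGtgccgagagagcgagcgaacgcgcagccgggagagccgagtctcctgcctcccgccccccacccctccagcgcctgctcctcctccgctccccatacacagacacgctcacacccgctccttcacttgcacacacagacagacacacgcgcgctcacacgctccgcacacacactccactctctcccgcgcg

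**Figure D4:**
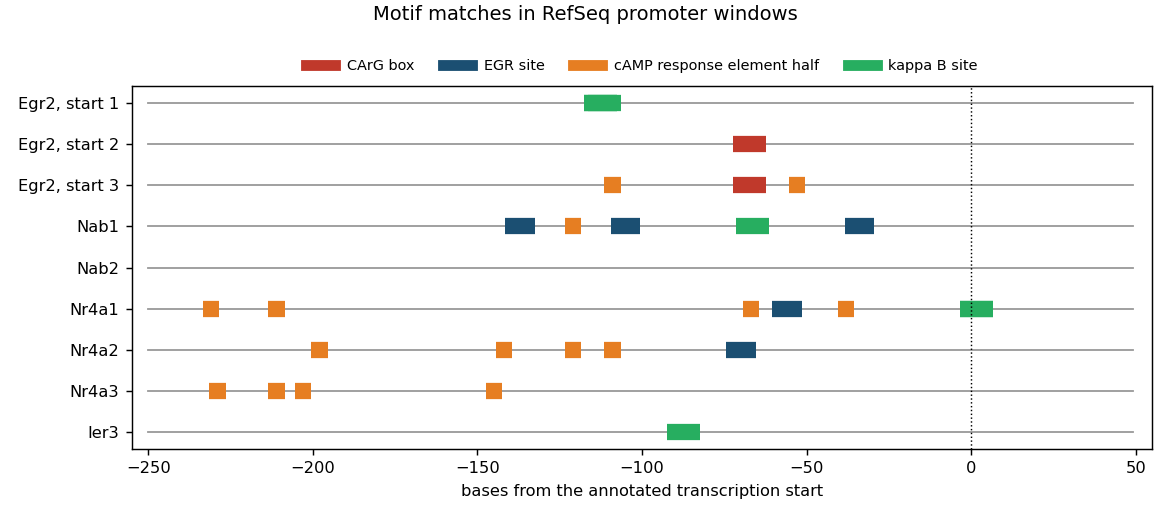
Motif matches on either strand along 9 RefSeq promoter windows, by distance in bases from the annotated start (dotted line), with a row per window. Exact CArG boxes (red) appear only for Egr2 among these windows, and no window of Egr1, Egr3 or Ier2 was used. TGACG cores of a cAMP response element (orange) occur 4 times in each NR4A window, and Nab2 has no match.

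Ier3 was the most abundant of the 10 genes in SRF-KO with LPS. It encodes a small protein known from apoptosis and NF-kB feedback, and lies on chromosome 17 (35821684 to 35822923, plus strand). It had 225, 222 and 236 CPM in SRF-KO with LPS, 103.5, 102.8 and 115 CPM in control with LPS and 4.44, 4.98 and 6.25 CPM in untreated control. The 3 groups were separate steps, as for Nr4a3. Its LPS response in control cells was a log2 fold change of 4.37 (adjusted p = 1.90e-35), which is 20.6-fold. SRF-KO with LPS was higher by a further 1.09 (SE 0.0473, 95% interval 0.99 to 1.18, adjusted p = 3.45e-22). With the sign kept, 12.7% of tested genes had a higher log2 fold change between the LPS groups. The Ier3 promoter window held 1 kappa B site and no exact CArG box.

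Ier2, a nuclear protein gene of the serum response, did not differ between the LPS groups beyond their spread. It lies on chromosome 8 (84661331 to 84662852, minus strand). It had 44.2, 38.0 and 40.9 CPM in SRF-KO with LPS, 39.3, 40.1 and 43.6 CPM in control with LPS and 17.4, 16.1 and 19.7 CPM in untreated control. The difference was -0.00 on the log2 scale with a 95% interval of -0.14 to 0.13 (adjusted p = 0.952). With library totals it was 0.35 and passed, where the median of all tested genes was 0.37 under that scaling and 0.01 with TMM. LPS raised Ier2 by 1.22 in control cells (SE 0.0742, adjusted p = 1.11e-17). The relative Ier5 behaved differently from both. It was at 60.6 ± 1.68 CPM in SRF-KO with LPS, 96.3 ± 1.35 CPM in control with LPS and 124 ± 4.41 CPM in untreated control. Between the LPS groups it was lower in SRF-KO (log2 fold change -0.67, adjusted p = 7.02e-16) and LPS lowered it (log2 fold change -0.37, adjusted p = 1.46e-09). Ier5l was near the limit of testing, at 0.472 ± 0.162, 0.211 ± 0.0594 and 2.46 ± 0.248 CPM in the same groups. Unlike Ier5, it was higher in SRF-KO between the LPS groups (log2 fold change 1.17, adjusted p = 0.0378). LPS lowered it (log2 fold change -3.49, adjusted p = 4.59e-11).

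Per kb of exon, Ier3 led in SRF-KO with LPS at 201 ± 6.48 CPM per kb, followed by Nab2 at 30.6 ± 0.659, Nab1 at 30.2 ± 0.901 and Ier2 at 26.9 ± 2.03. Nab1 and Nab2 did not differ there beyond their spread. In control with LPS, Ier3 was at 94.7 ± 6.10 CPM per kb, Nab1 at 46.0 ± 0.761, Nab2 at 44.1 ± 0.837 and Ier2 at 26.9 ± 1.49. In untreated control Nab1 led at 18.9 ± 0.636 CPM per kb, ahead of Nab2 at 13.2 ± 0.428, Ier2 at 11.7 ± 1.20 and Ier3 at 4.62 ± 0.820. Egr2 was at 8.24 ± 0.878 CPM per kb in SRF-KO with LPS, 0.413 ± 0.0602 in control with LPS and 0.858 ± 0.115 in untreated control. The other members were below 7 CPM per kb in every group.

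**Figure D5:**
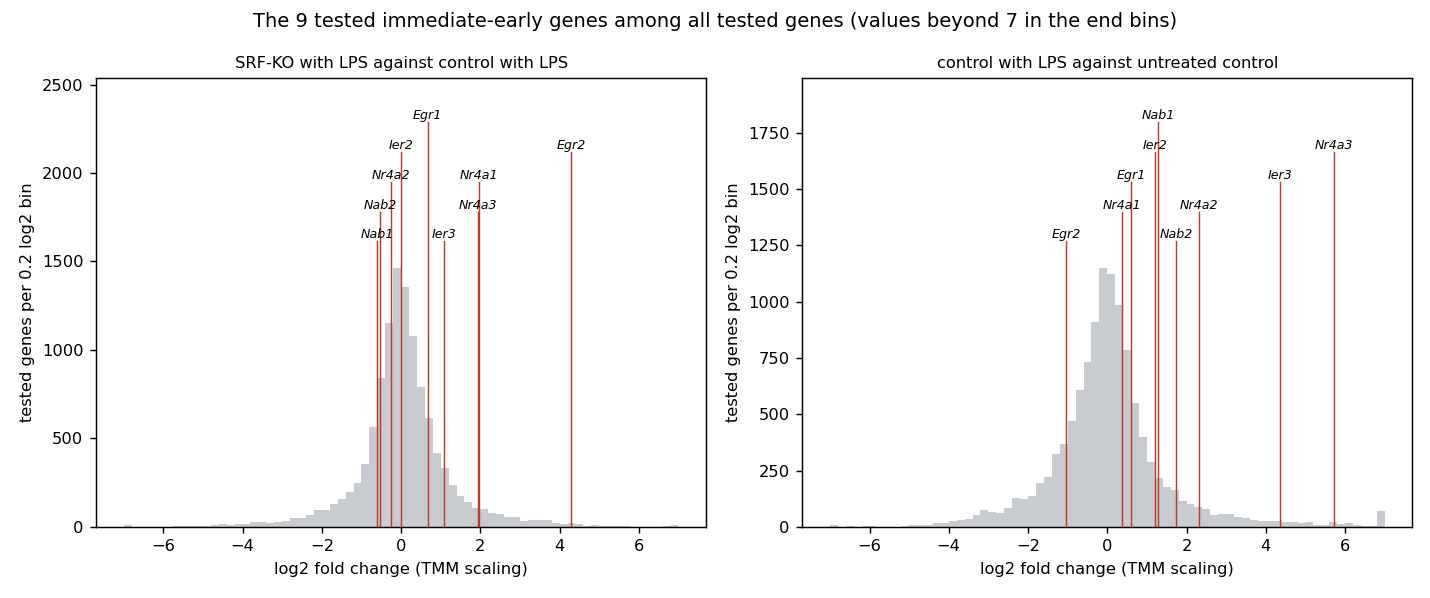
Histograms of log2 fold changes of all 11560 tested genes (grey, bins of 0.2), with the 9 tested genes as red lines, for SRF-KO with LPS against control with LPS (left) and control with LPS against untreated control (right). On the left Egr2 lies at 4.30 in the right tail while Egr1, Nab1, Nab2, Nr4a2 and Ier2 lie within the bulk. On the right Nr4a3 and Ier3 lie in the tail.

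The 9 tested genes had a median log2 fold change of 0.67 in SRF-KO against control with LPS, where the median of all tested genes was 0.01. For LPS against untreated control the medians were 1.29 and -0.02, and for SRF-KO with LPS against untreated control 2.05 and -0.01. In gene structure, which the choice by name did not use, the 10 genes fell into 2 sets. The EGR and IER genes have 1 or 2 exons in their principal transcript, so 5 of the 10 have at most 2, against 5.94% of 11470 tested genes with such a transcript. The NAB and NR4A genes have 7 or 8 exons, and Nab1 and Nr4a3 span 43386 and 41295 bp, more than the median of 24197 bp over tested genes. In the 3′ UTR, 9 of 10 hold the pentamer ATTTA, the core of AU-rich elements, against 67.1% of tested genes. Ier3 has 8.16 per kb and Ier2 has 0, against a median of 1.26 per kb.

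Other immediate-early and primary-response genes included members higher and lower between the LPS groups, as did all tested genes (39.1% higher and 37.9% lower). Of 42 listed genes 39 were tested, and in SRF-KO against control with LPS 17 were higher, 19 lower and 3 did not pass (median -0.10, or 0.26 with library totals, with 22 higher and 16 lower). Dusp2 and Dusp1, MAP kinase phosphatases, fell by 4.14 and 1.77 on the log2 scale in SRF-KO, and Klf6, a Kruppel-like factor, fell by 1.71. Fosl2, an AP-1 subunit, was at 284 ± 4.57 CPM in SRF-KO with LPS, 118 ± 2.20 in control with LPS and 40.0 ± 1.81 in untreated control. Phlda1 was at 90.9 ± 1.47, 20.2 ± 0.462 and 3.61 ± 0.575 CPM in these groups, the same order as Nr4a3 and Ier3. LPS in control cells raised 20 of the 39 and lowered 14 (median 0.52, or -0.03 with library totals, with 19 higher and 17 lower). Of all tested genes 40.8% were called higher and 40.8% lower. Dusp2, Dusp1 and Nfkbiz, a nuclear IkB protein, rose by 6.36, 3.11 and 3.01.

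Upstream of these genes, 12 genes of the MAP kinase chain to the ternary complex factors were tested. Of these, 3 were higher and 4 lower in SRF-KO against control with LPS (median -0.04), or 7 and 3 with library totals, shares that with TMM were no greater than those of all tested genes. Map3k8, the kinase TPL2 that carries LPS signals to ERK, was at 27.3 ± 1.84 CPM in SRF-KO with LPS, 96.1 ± 2.68 CPM in control with LPS and 18.4 ± 0.717 CPM in untreated control. Spred1 and Map2k1, which encodes MEK1, had log2 fold changes of -1.29 and -0.86 in SRF-KO against control with LPS (adjusted p = 1.29e-24 and 3.15e-22). Of CREB and its coactivators, which act at cAMP response elements, 4 of 6 were higher and 1 lower in SRF-KO, or 6 and 0 with library totals. Beside these and the next lists, 39.1% of all tested genes were higher and 37.9% lower with TMM. With library totals 7059 of the 11560 tested genes were higher and 2434 lower. Crtc1 was 1.15 higher (SE 0.0969, adjusted p = 1.94e-13). Of 11 NuRD genes, whose complex NAB proteins recruit, 3 were higher and 6 lower in SRF-KO, or 7 and 1 with library totals. Of SRF and its 5 listed cofactors, 3 were higher and 3 lower in SRF-KO against control with LPS, or 5 and 1 with library totals. Mrtfa and Mrtfb, actin-regulated coactivators, and Elk4, a ternary complex factor, had log2 fold changes of 0.62, 0.52 and 0.27. Besides Srf, the ternary complex factors Elk1 and Elk3 were lower with TMM, at -0.22 and -0.20.

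The genes whose profile over the 9 libraries was nearest to each member were found by Euclidean distance between mean-centred log2 CPM. For Egr2 these were Eef1a2, a translation elongation factor, and Acsbg1, an acyl-CoA synthetase, at distances of 0.46 and 0.51, with differences of SRF-KO from control with LPS of 4.38 and 3.94. For Nr4a1 they were Zfp523 and Carmil1, an actin-capping regulator, at 0.28 and 0.38. Nr4a3 had Cd247, the T cell receptor zeta chain, and F10, coagulation factor X, at 0.76 and 1.06. Ier3 had Spint2, a protease inhibitor, and Rab11fip1 at 0.57 and 0.66. Nab1 lay next to Naip5, a flagellin sensor, and Trip12, a ubiquitin ligase, at 0.10 and 0.11, and Nab2 next to Sik3, a salt-inducible kinase, and St3gal1, a sialyltransferase, at 0.09 and 0.10.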

How the data were processed

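The 9 RNA libraries used a stranded TruSeq kit, per the labels' protocols. The deposited values are raw read counts per Ensembl gene from the authors, per the file headers. Alignment with STAR 2.5.4b to GRCm38 and counting with featureCounts are named by the submitters' processing notes, beside bcl2fastq 2.19, Trimmomatic and edgeR. Which annotation release and strand setting the counting had is not given in the sources. Symbols were found for 22214 of 22524 identifiers, and coordinates and exon lengths came from GENCODE mouse release 21.

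In R 4.3.3 with edgeR 4.0.16, 11560 genes kept by filterByExpr entered 1 quasi-likelihood fit of all 9 libraries (TMM scaling, group as the only term, robust estimation, Benjamini-Hochberg adjustment over all tested genes). The fit was also run on simulated counts in which most genes were unchanged, so that run could not test the scaling. Standard errors came from the unshrunk fold change and the F statistic. DESeq2 1.42.0 and limma 3.58.1 (log2 CPM, prior count 2) served as alternatives, with 2 other scalings, no filter, 2-group fits, a replicate block and each library left out. TMM assumes that most genes do not change. The median log2 fold change of all tested genes was -0.57 with library totals and -0.02 with TMM for LPS, 0.37 and 0.01 for SRF-KO against control with LPS, and -0.20 and -0.01 for SRF-KO with LPS against untreated control.

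Replicate pairs differed by more than sampling noise (chi-square per degree of freedom 1.75 to 3.99). Since no label ties replicates to separate mice or cultures, p-values measure only the spread among these libraries, possibly a technical one. Promoter windows came from RefSeq. The members and lists were chosen with earlier results of these data known. Named genes were the 10 members, Srf, 3 relatives, up to 3 genes of smallest p per list, overlapping genes and 2 nearest profiles per member, and Uty, Ddx3y, Kdm5d and Eif2s3y and the markers were added as checks, and Elk4 after its values were seen.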

Additional observations from a re-analysis of the deposited data

How the results depend on the processing

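Counts of members called higher or lower stayed within 1.5 times of the reported ones under all 16 alternatives. Library totals in place of TMM moved the balance over all genes most, to 2428 higher and 7835 lower for LPS against untreated control (4722 and 4721 with TMM), 7059 and 2434 for SRF-KO against control with LPS (4521 and 4384), and 3448 and 6042 for SRF-KO with LPS against untreated control (4554 and 4638). With library totals the log2 fold change became -0.18 for Nr4a1 and -0.17 for Srf in the LPS response, and 0.0918 for Nr4a2 and 0.35 for Ier2 in SRF-KO against control with LPS, and the LPS response of Egr1 no longer passed. The Ier2 difference was 0.0048 with no filter and -0.0635 to 0.0497 with single libraries left out. Without control LPS replicate 3 the LPS response of Nr4a1 was 0.31 and did not pass. Without untreated replicate 2 the log2 fold change of Nr4a3 was 6.82 for LPS and 8.75 for SRF-KO with LPS against untreated control, and with limma 4.99 and 6.92. The cause was not tested.

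No pairing of the libraries by replicate number was seen, though so few libraries per group cannot exclude one. Correlations of same-numbered libraries ranged from -0.07 to 0.10, and 4 of 9 libraries correlated best with their own number. With the number as a replicate block, 4530 genes were higher and 4389 lower in SRF-KO against control with LPS, 5 and 2 of them members, and no call on a member changed. Depth limits Egr3, with 24 counts at most per group, and Nr4a2.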
